A study of Mus musculus with 12 samples.

Results

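The genes described here were 36 genes of G2 phase and mitosis, taken by symbol from a fixed list, and all 36 were among the 25860 genes of the RNA table. They covered 7 roles: the cyclin-CDK switch, mitotic kinases with the passenger complex, the spindle checkpoint with the anaphase-promoting complex (APC/C), the centromere and kinetochore, spindle motors and microtubule binders, cytokinesis, and chromosome structure. The study profiled CD8+ progenitor T cells (T_prog_), the stem-like cells that give rise to autoimmune effector T cells in type 1 diabetes, sorted from pancreatic lymph nodes of female mice. RNA-seq and ATAC-seq were each done on 3 WT and 3 UTX TCD samples, which the methods of the study call biological replicates for ATAC-seq and do not describe for RNA-seq. The WT group was *NOD-TCR 8.3 WT*, NOD mice that carry the NY8.3 T cell receptor transgene. The UTX TCD group was *NOD-TCR 8.3 UTX TCD*, NOD mice with the same transgene in which loxP-flanked *Kdm6a*, the gene of the histone demethylase UTX, was deleted by Cre under the Lck promoter. The study did not state at which stage of T cell development the deletion takes place, and the receptor transgene was shared by both groups. The gate was given as Ly108+CXCR6- in the series description and as Ly108+CD39- in the methods of the study, and the age of the mice used for these libraries was not given in the sources used here.

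Passage through mitosis is driven by cyclin-dependent kinase 1 bound to A- and B-type cyclins and is ended by the APC/C, which marks the cyclins for destruction once every chromosome is attached to the spindle. Most of the genes involved are transcribed only in cycling cells. In resting cells they are repressed by the DREAM complex, and in late S and G2 phase the MuvB core of that complex works with B-MYB and FOXM1 to activate them, largely through a short promoter element, the cell cycle genes homology region (CHR).

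The RNA values were normalized counts, the reads of each gene divided by 1 size factor per library. Depth, as reads assigned to genes, was 146456724, 144503203 and 193568919 for the WT libraries and 61512402, 175462433 and 187275082 for the UTX TCD libraries, so UTX TCD library 1 was the shallowest. *Kdm6a* stood at 28365, 28949 and 29172 normalized counts in the WT libraries and at 24159, 24792 and 24579 in the UTX TCD libraries. Each UTX TCD value was under each WT value, but by a log2 fold change of only -0.23 (SE 0.037, limma adjusted p = 0.00114). A gene total also counts reads from exons outside a loxP-flanked segment, so it is a weak check of the deletion. The cell type labels were checked on *Cd8a* (272448, 270012 and 274004 in WT and 311527, 313000 and 270975 in UTX TCD) and on *Tcf7*, the gene of the progenitor factor TCF1 (244276, 234809 and 227810 against 229604, 220872 and 221558). Both were abundant in every library, and the groups overlapped. Of the 5 CD8 T cell markers 3 did not overlap, and none was called: *Cd8b1* (148808, 138851 and 136749 against 121688, 111349 and 95740) and *Cd3d* (69275, 63369 and 72913 against 55511, 58879 and 54935) lay wholly below WT, and *Cd3e* (145172, 139763 and 133010 against 165614, 151798 and 151586) wholly above. Among all genes tested 26.1% lay wholly below WT and 25.8% wholly above. *Slamf6*, which encodes Ly108, stood at 27732, 34096 and 23305 in WT and 36665, 30980 and 35425 in UTX TCD, again with overlap. Of the 5 genes of the progenitor list 4 overlapped, and *Cd44*, a marker of activation, lay wholly above WT without being called (12194, 11856 and 11441 against 13352, 12482 and 14191).

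Most of the 36 transcripts were more abundant in UTX TCD T_prog_ cells, and 6 of the 7 role classes had a higher sum in every UTX TCD library than in any WT library. The exception was cytokinesis, whose sum was 21362, 24914 and 21690 normalized counts in WT and 15348, 15398 and 19246 in UTX TCD, with *Racgap1* its most abundant gene in counts. The summed level of the 36 genes was 79732, 89218 and 80842 normalized counts in the WT libraries and 112793, 115063 and 145662 in the UTX TCD libraries. Their median log2 fold change, UTX TCD over WT, was 0.83, beside 0.00 for all 14459 genes tested (those with a mean of at least 10 normalized counts). A gene was called when its limma adjusted p was under 0.05 and its absolute log2 fold change over 0.5. All 36 genes were tested, of which 28 were called higher and 1, *Racgap1*, was called lower. Among all genes tested 2538 were called (17.6% of those tested), 1518 of them higher (10.5%) and 1020 lower (7.05%). All 3 UTX TCD libraries lay above all 3 WT libraries for 33 of the 36 genes (25.8% of all genes tested) and below them for 2 (26.1% of all genes tested), and only *Cenpa* overlapped between the groups. In bulk RNA a larger share of cycling cells and more mitotic RNA per cell cannot be told apart. With 3 libraries against 3, an exact two-sided permutation test of a single gene cannot give a p below 0.1, so the calls rest on the spread that limma shares across genes.

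The UTX TCD libraries did not carry the rise equally. UTX TCD library 3 held the highest of its group's values for all 36 genes, against 39.3% of all genes tested, and the highest of all 6 libraries for 33, against 20.6%. The median of the 36 genes, as a log2 difference from their WT means, was 0.65 in library 1, 0.69 in library 2 and 1.17 in library 3, against -0.05, 0.07 and -0.03 in the WT libraries. Without library 3 the median log2 fold change was 0.66 and 27 genes were still called higher. This look at single libraries was chosen after the data had been seen.

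Transcripts of other cell types were counted beside these values, and their part in the result was not tested. The 5 B cell markers summed to 2951, 2437 and 2800 normalized counts in WT and 1221, 1082 and 1000 in UTX TCD, of which *Cd79b* was the most abundant and was called lower (2502, 1930 and 2465 against 648, 633 and 470). *Ms4a1*, the only other B cell marker called, was called higher (5.94, 19.7 and 8.39 against 20.2, 29.6 and 73.0). *Pax5*, which defines the B lineage, was at 0 in UTX TCD library 2, where a count of 0 allows up to 2.40 normalized counts (3 reads, counting error only). Germinal centre B cells divide fast, and their 4 markers summed to 838, 809 and 831 in WT and 1080, 1095 and 1241 in UTX TCD, led by *S1pr2* (567, 542 and 577 against 711, 720 and 811), and *Mybl1* was called higher. The 3 plasma cell markers were low, with sums of 27.7, 46.4 and 17.5 in WT and 81.0, 64.9 and 120.2 in UTX TCD. The sum was highest in UTX TCD library 3 because of *Jchain* (15.8, 29.6 and 9.91 against 38.2, 30.4 and 89.2). Within the UTX TCD group *Sdc1* was lowest in library 3, and *Mzb1* was highest in library 1. Both markers that were tested, *Jchain* and *Sdc1*, were called higher.

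The 3 NK cell markers summed to 13406, 15370 and 13193 in WT and 19113, 19092 and 26857 in UTX TCD, nearly all of it from *Eomes*, which memory-like CD8+ T cells also express (13370, 15315 and 13176 against 19100, 19086 and 26829). *Eomes* was called higher (log2 fold change 0.62, SE 0.12, limma adjusted p = 0.00388) and was highest in UTX TCD library 3, while *Klrb1c*, the other NK marker tested, had a log2 fold change of -1.18 and was not called (28.7, 55.3 and 16.8 against 13.5, 5.61 and 25.8). *Ncr1*, which defines NK cells, was at 0 in 4 of the 6 libraries, and reached 6.93 in WT library 1 and 2.95 in UTX TCD library 3. The 5 myeloid markers summed to 789, 808 and 620 against 1055, 791 and 976, with *Cd68* the most abundant (685, 667 and 544 against 972, 703 and 896). The only myeloid marker called, *Csf1r*, went the other way (27.7, 25.7 and 19.1 against 4.50, 5.61 and 8.11), and of the 4 tested 2 had a positive and 2 a negative log2 fold change.

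The 3 CD4 T cell markers summed to 450, 378 and 404 in WT and 382, 364 and 346 in UTX TCD, led by *Foxp3*, which overlapped between the groups (317, 235 and 272 against 306, 263 and 280). *Cd4* was called lower (90.1, 103.7 and 83.1 against 58.5, 68.1 and 41.3), and *Cd40lg* lay wholly below WT but was not called (42.6, 39.5 and 48.8 against 18.0, 32.0 and 24.3). Red cell markers summed to 241, 196 and 169 against 173, 163 and 299, led by *Alas2* (174, 150 and 135 against 144, 139 and 153), and *Hbb-bs* was at 0 in UTX TCD library 1, where 0 allows up to 6.75. Stromal markers summed to 31953, 29751 and 32166 against 37871, 38036 and 33924, nearly all from *Pecam1* (31173, 29365 and 31327 against 37056, 37236 and 33068), which T cells also express. Genes of the T mediator state summed to 54463, 46936 and 57934 in WT and 37338, 39727 and 40788 in UTX TCD, led by the granule gene *Nkg7* (29281, 25448 and 31335 against 19756, 21067 and 21719), so each UTX TCD sum was under each WT sum for that list. Of its 7 genes 3 were called lower, against 7.05% of all genes tested. These were *Cxcr6*, *Havcr2*, which was low (means 18.0 and 3.05), and *Ccl5*, which overlapped between the groups. *Nkg7* was not called (log2 fold change -0.46). *Prf1*, the only gene of the list with a positive log2 fold change (0.13), lay wholly above WT without being called.

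**Figure D1:**
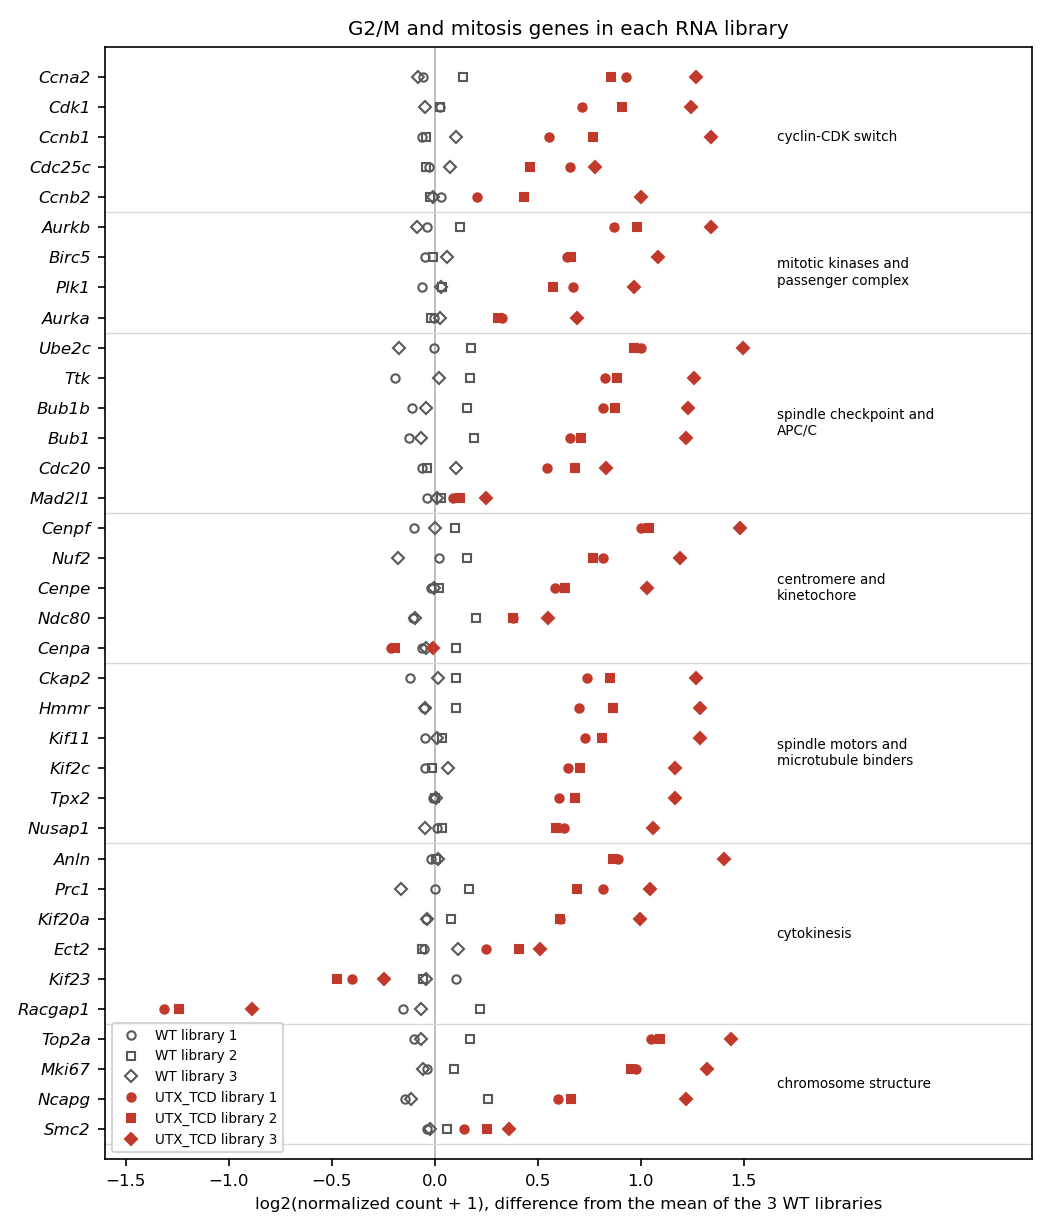
Each of the 36 G2/M and mitosis genes in each of the 6 RNA libraries, as the difference of log2(normalized count + 1) from the mean of the 3 WT libraries (x axis), grouped by role (open grey symbols, WT; filled red symbols, UTX TCD; circle, square and diamond, libraries 1, 2 and 3). For 33 genes all 3 red symbols lie to the right of all grey ones, *Kif23* and *Racgap1* lie to the left, and UTX TCD library 3 is the rightmost red symbol in every row.

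All 5 genes of the cyclin-CDK switch rose, with log2 fold changes from 0.55 to 1.02 and a median of 0.89. *Ccna2*, the cyclin of S and G2 phase and the most abundant of the 5 in counts, was at 1212, 1387 and 1191 normalized counts in WT and at 2398, 2282 and 3038 in UTX TCD. The WT mean was 1264 ± 107 and the UTX TCD mean 2573 ± 407 (SD, n = 3), with a log2 fold change of 1.02 (SE 0.11, limma adjusted p = 1.46e-04). It was the strongest change of the class, and the lowest UTX TCD value lay well above the highest WT value. *Cdk1*, the mitotic kinase itself, was at 687, 687 and 654 in WT and 1111, 1269 and 1603 in UTX TCD. *Ccnb1*, its partner at mitotic entry, was at 325, 330 and 365 against 499, 578 and 860. *Cdc25c*, the phosphatase that removes inhibitory phosphates from CDK1, was the scarcest of the 36 genes per kilobase of exon, at 148, 146 and 159 normalized counts against 238, 208 and 259. The groups stood apart for all of these, and the WT libraries were closer to each other than the UTX TCD libraries were.

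*Ccnb2*, a second B-type cyclin, had the smallest change of the class, from 776, 747 and 753 normalized counts in WT to 875, 1025 and 1519 in UTX TCD. Its log2 fold change was 0.55 (SE 0.17, limma adjusted p = 0.0337), and most of the distance came from UTX TCD library 3. This call was lost without any one of WT libraries 1, 2 or 3, with adjusted p-values of 0.0725, 0.0807 and 0.0723, and without UTX TCD library 2 (0.0542). Its log2 fold change stayed near its value with all libraries in these settings (0.56, 0.54, 0.54 and 0.60), and only without UTX TCD library 3 did it drop, to 0.32, under the fold limit.

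All 4 mitotic kinases and passenger proteins lay wholly above WT, and 3 were called higher. *Aurkb*, the kinase of the chromosomal passenger complex, had the strongest change, from 450, 503 and 434 normalized counts in WT to 844, 911 and 1169 in UTX TCD (log2 fold change 1.06, SE 0.13, limma adjusted p = 2.94e-04). *Birc5*, which encodes survivin, the subunit that docks this complex on chromosomes, was at 897, 922 and 965 against 1451, 1469 and 1968. *Plk1*, a kinase needed from mitotic entry to cytokinesis, was at 750, 801 and 798 against 1248, 1166 and 1532. For these genes each UTX TCD library exceeded each WT library. *Aurka*, the kinase of the spindle poles, was at 644, 639 and 657 in WT and 810, 799 and 1045 in UTX TCD, with a log2 fold change of 0.44 (SE 0.12, limma adjusted p = 0.0149). Its groups did not overlap either, but it stayed under the fold limit. It was over that limit when each library was scaled to the same sum (log2 fold change 0.50) and without UTX TCD library 2 (0.51).

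Of the 6 genes of the spindle checkpoint and the APC/C, 5 were called higher and *Mad2l1* was not called. *Ube2c*, the ubiquitin-conjugating enzyme of the APC/C, went furthest, from 469, 531 and 416 normalized counts in WT to 942, 918 and 1328 in UTX TCD (log2 fold change 1.16, SE 0.16, limma adjusted p = 4.56e-04). *Cdc20*, the activator of the APC/C at anaphase onset, was at 1439, 1462 and 1611 against 2191, 2412 and 2670, and was the most abundant of the class per kilobase of exon. Both had UTX TCD values above every WT value. The checkpoint kinase *Bub1* was at 635, 793 and 663 in WT and 1095, 1134 and 1619 in UTX TCD. *Bub1b*, which encodes the inhibitor BUBR1, was at 975, 1175 and 1021 against 1856, 1935 and 2473. *Ttk*, the kinase that starts the checkpoint signal, was at 226, 291 and 262 against 459, 477 and 619. The log2 fold changes of these kinases were 0.86, 0.97 and 0.99.

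*Mad2l1* encodes MAD2, the checkpoint protein that binds and holds back CDC20. It had the highest counts of the class but moved least, with 2691, 2819 and 2783 normalized counts in WT and 2942, 3008 and 3285 in UTX TCD. Its values did not overlap between the groups, at a log2 fold change of 0.15 (SE 0.061, limma adjusted p = 0.0712), which did not pass the test.

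Of the 5 centromere and kinetochore genes, 3 were called higher. *Cenpf*, a large kinetochore protein made in G2 phase, was at 1522, 1746 and 1634 normalized counts in WT and 3266, 3352 and 4554 in UTX TCD (log2 fold change 1.17, SE 0.12, limma adjusted p = 9.96e-05). *Cenpe*, a kinesin that moves chromosomes to the spindle equator, was at 2153, 2216 and 2177 against 3268, 3387 and 4458. *Nuf2*, a subunit of the NDC80 complex that grips microtubules, was at 528, 580 and 460 against 918, 886 and 1190. All of them had clear gaps between the groups. *Ndc80*, the partner of NUF2 in the same complex, was at 1357, 1677 and 1368 in WT and 1901, 1903 and 2136 in UTX TCD. Its log2 fold change of 0.44 (SE 0.097, limma adjusted p = 0.00642) was under the fold limit, against 0.93 for *Nuf2*, and it rose to 0.54 without WT library 2, the highest WT library for this gene. The difference between the genes was not tested.

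*Cenpa*, the histone H3 variant that marks centromeres, was at 2574, 2887 and 2611 normalized counts in WT and at 2315, 2346 and 2668 in UTX TCD. The groups overlapped, and its log2 fold change of -0.14 (SE 0.076, limma adjusted p = 0.173) did not pass the test. Its log2 fold change ran from -0.21 without UTX TCD library 3 to -0.09 without WT library 2, and was -0.08 after scaling all libraries to an equal sum. A p that misses the threshold does not show that its level was equal in the groups.

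All 6 spindle motors and microtubule binders rose, and they did so within a narrow range of log2 fold changes, from 0.76 to 0.95. *Ckap2*, a microtubule-stabilising protein, was at 535, 626 and 590 normalized counts in WT and 972, 1051 and 1403 in UTX TCD (log2 fold change 0.95, SE 0.14, limma adjusted p = 7.26e-04). *Kif11*, the motor that pushes the spindle poles apart, had the highest counts of the class, with 1878, 1986 and 1957 against 3212, 3405 and 4744. *Hmmr*, a spindle assembly factor, was at 539, 600 and 541 against 909, 1020 and 1366. In each, UTX TCD libraries 1 and 2 lay close together and library 3 above them. *Kif2c*, a kinesin that shortens microtubules at centromeres, was at 495, 508 and 535 in WT and 803, 835 and 1152 in UTX TCD. *Tpx2*, which activates Aurora A on the spindle, was at 1561, 1571 and 1574 against 2387, 2518 and 3524. *Nusap1*, a microtubule-bundling protein, had the smallest change, from 1528, 1554 and 1467 to 2342, 2283 and 3156 (log2 fold change 0.76, SE 0.12, limma adjusted p = 9.10e-04). Every UTX TCD value of these genes exceeded every WT value.

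The 6 cytokinesis genes split, with 3 called higher, 1 called lower and 2 not called. *Anln*, the actin-binding scaffold of the contractile ring, was at 394, 400 and 403 normalized counts in WT and 740, 726 and 1059 in UTX TCD (log2 fold change 1.05, SE 0.15, limma adjusted p = 5.57e-04). *Prc1*, which bundles the microtubules of the central spindle, was at 1470, 1651 and 1312 against 2596, 2376 and 3041. *Kif20a*, a central spindle kinesin, was at 1139, 1237 and 1142 against 1786, 1787 and 2340. For all of these, each UTX TCD value exceeded each WT value. *Ect2*, a protein that acts at the cell equator in cytokinesis, was at 1055, 1047 and 1182 in WT and 1300, 1452 and 1559 in UTX TCD, without overlap but under the fold limit (log2 fold change 0.39, SE 0.091, limma adjusted p = 0.00846).

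*Racgap1* and *Kif23* went the other way. Their products together form centralspindlin, the complex that recruits ECT2 to the central spindle, a link drawn after the data had been seen. *Racgap1* was at 12678, 16444 and 13473 normalized counts in the WT libraries and at 5668, 5961 and 7613 in the UTX TCD libraries. The WT mean was 14198 ± 1985 and the UTX TCD mean 6414 ± 1049 (SD, n = 3), with a log2 fold change of -1.15 (SE 0.12, limma adjusted p = 1.15e-04), and no UTX TCD library came near the lowest WT library. *Kif23* was at 4626, 4136 and 4179 in WT and 3257, 3096 and 3634 in UTX TCD. Here too no UTX TCD value reached the lowest WT value, at a log2 fold change of -0.38 (SE 0.073, limma adjusted p = 0.00340), which was under the fold limit. UTX TCD library 3, which held the highest UTX TCD value of every gene that rose, also held the highest UTX TCD value of these 2 genes.

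In chromosome structure 3 of 4 genes were called higher, among them *Top2a*, which had the highest log2 fold change of all 36. *Mki67*, the Ki-67 gene, whose product coats mitotic chromosomes and is used as a marker of cycling cells, was at 13571, 14836 and 13395 normalized counts in WT and 27436, 26910 and 34778 in UTX TCD. The WT mean was 13934 ± 786 and the UTX TCD mean 29708 ± 4399 (SD, n = 3), with a log2 fold change of 1.08 (SE 0.092, limma adjusted p = 3.25e-05). *Top2a*, the topoisomerase that untangles sister chromatids, was at 7507, 9071 and 7685 against 16711, 17180 and 21824 (log2 fold change 1.19, SE 0.11, limma adjusted p = 4.14e-05). The WT and UTX TCD ranges of both genes were far apart. *Ncapg*, a subunit of condensin I, was at 719, 949 and 734 in WT and 1201, 1255 and 1848 in UTX TCD. *Smc2*, the core subunit of condensins I and II, was at 9579, 10264 and 9692 against 10847, 11742 and 12627, without overlap but with a log2 fold change of only 0.25 (SE 0.060, limma adjusted p = 0.00939).

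Levels were compared between genes as mean normalized counts per kilobase of merged exons. In WT cells *Racgap1* ranked 1st of the 36 genes, at 2006 per kilobase, ahead of *Smc2* at 1797 and *Mki67* at 1385. In UTX TCD cells *Mki67* ranked 1st, at 2953 per kilobase, and *Racgap1* ranked 5th, at 906. *Kif23* went from 6th, at 546 per kilobase, to 16th, at 421, and *Cenpa* from 8th, at 459, to 17th, at 417. *Cdc25c* was the lowest in both groups, at 30.7 and 47.8 per kilobase. The 3 genes with a negative log2 fold change were thus among the 8 most abundant of the list in WT cells.

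Other genes of the cycle gave the setting for these changes. Of 65 further periodic G2/M genes 51 were called higher and 3 lower, against 10.5% and 7.05% of all genes tested. Their median log2 fold change was 0.74. *Psrc1*, a spindle protein, went furthest, from 198, 274 and 183 normalized counts in WT to 1480, 1508 and 1671 in UTX TCD (log2 fold change 2.84, SE 0.15, limma adjusted p = 2.42e-06). *Depdc1b* fell most, from 1528, 1581 and 1579 to 812, 881 and 756 (log2 fold change -0.94, SE 0.081, limma adjusted p = 3.53e-05). In both cases the groups were far apart. The other 2 genes called lower, named after their values were seen, were the condensin gene *Smc4* (129926, 149323 and 135717 against 86017, 89489 and 103295) and the CDK-activating phosphatase gene *Cdc25b* (7055, 7466 and 7351 against 3448, 3712 and 4571).

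Mitosis genes taken here as expressed throughout the cycle, which was not tested for any of them, were counted as well. Of 32 such genes, mostly APC/C subunits, cohesin subunits and constitutive kinetochore proteins, 2 were called higher and 0 lower. Among all genes tested 10.5% were called higher and 7.05% lower. The median log2 fold change of the 32 genes was 0.00. A further 11 had an adjusted p under 0.05 within the fold limit, as did 3349 of all 14459 genes tested. The UTX TCD libraries lay wholly above WT for 10 (25.8% of all genes tested) and wholly below for 8 (26.1% of all genes tested). The difference from the periodic genes was not tested. *Wee1*, the kinase that holds CDK1 inactive, had the highest value, from 910, 1090 and 916 normalized counts in WT to 1782, 1844 and 2099 in UTX TCD (log2 fold change 0.97, SE 0.098, limma adjusted p = 8.35e-05). *Anapc11*, the RING subunit of the APC/C, had the lowest, at 4068, 3973 and 4188 against 2938, 3294 and 3060 (log2 fold change -0.40). *Fzr1*, which encodes the APC/C activator CDH1 of G1 phase, was at 2982, 2673 and 3097 against 3210, 3435 and 3375, with a log2 fold change of 0.20. The groups did not overlap for any of them.

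The 17 genes of DREAM and MuvB or their regulators had a median log2 fold change of 0.08. Of these 17 genes 4 were called higher and 0 lower, against 10.5% and 7.05% of all genes tested. *Foxm1* was at 1392, 1415 and 1382 normalized counts in WT and 2258, 2205 and 2541 in UTX TCD (log2 fold change 0.74, SE 0.072, limma adjusted p = 6.89e-05). *Mybl2*, which encodes B-MYB, was at 559, 640 and 565 against 922, 943 and 1033 (log2 fold change 0.72). Both activators of the G2/M programme are periodic themselves and were also members of the previous list of periodic genes. *Lin54*, the MuvB subunit that binds the CHR, was at 4018, 3739 and 4236 in WT and 4098, 4129 and 3761 in UTX TCD, with a log2 fold change of 0.00. *Rbl2*, the pocket protein p130 of the repressive complex, was at 38779, 36108 and 39334 against 41168, 41239 and 40902. *Nfyc*, a subunit of the CCAAT-binding factor NF-Y, had the lowest value of the list, 6383, 5761 and 6618 against 5399, 5556 and 5439 (log2 fold change -0.19).

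*Cdkn1a*, the gene of the CDK inhibitor p21, which acts upstream of DREAM, had the highest value of that list and rose together with the genes it restrains. It was at 29.7, 45.4 and 29.7 normalized counts in WT and 403, 305 and 435 in UTX TCD, a ratio of means of 10.9 (log2 fold change 3.42, SE 0.23, limma adjusted p = 9.19e-06). No overlap was seen, and the counts in WT were low.

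Of 30 genes of the G1/S transition and DNA replication 16 were called higher and 0 lower, against 10.5% and 7.05% of all genes tested. Their median log2 fold change was 0.53. *E2f1*, an activator of this programme, went furthest, from 414, 540 and 512 normalized counts to 1341, 1566 and 1482 (log2 fold change 1.59, SE 0.12, limma adjusted p = 1.55e-05). *Ccne1*, which encodes cyclin E1, had the lowest value, at 3288, 3219 and 2894 against 2589, 2548 and 2436 (log2 fold change -0.31). The UTX TCD libraries lay wholly above WT for the former and wholly below WT for the latter.

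**Figure D2:**
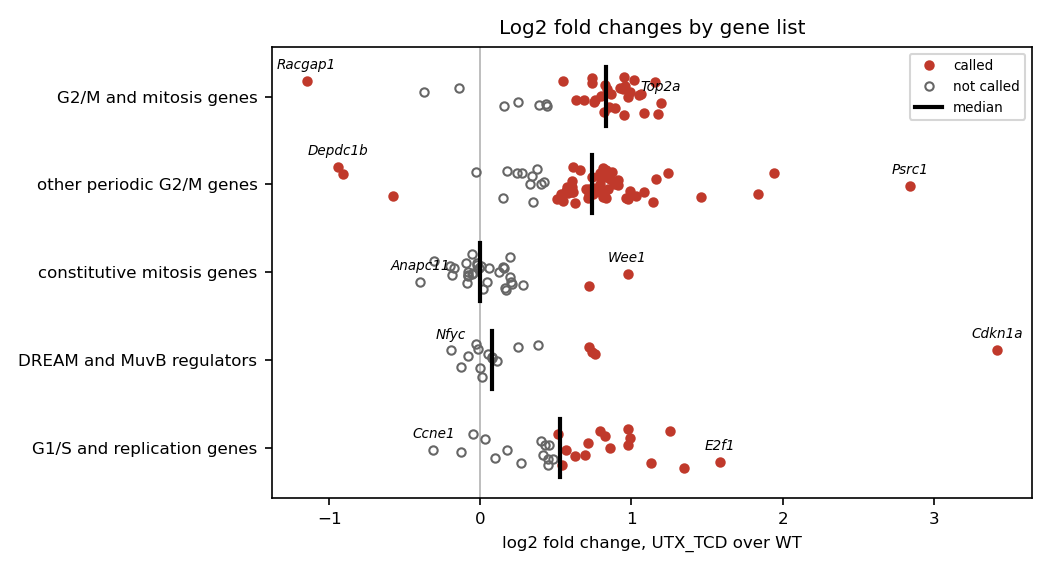
Log2 fold change of each tested gene (x axis, UTX TCD over WT) in the 36 G2/M and mitosis genes and the 4 lists of other cell cycle genes (y axis; points are spread vertically so that they can be seen). Filled red points passed the call, open points did not, the black bar is the list median (0.83, 0.74, 0.00, 0.08 and 0.53 from top to bottom), and the lowest and highest gene of each list are named.

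In ATAC-seq the table at hand listed 23932 regions with the mean log2 read concentration of each genotype, as the authors pooled them, and no spread per library, so what follows is a description without a test. The peaks in it had passed the authors' FDR with no limit on the size of the difference, so small differences are among them, and each was assigned to the nearest promoter. Of the 36 genes 14 had at least 1 listed peak, 38.9%, against 47.6% of all genes tested. They had 29 peaks in all. Of these 17 (58.6%) had a higher mean in UTX TCD and 12 a lower one, and of all listed peaks 68.8% had a higher mean. The study also set a limit of 0.5 on the absolute log2 fold change. All 12 lower peaks passed it by the difference of these means (-0.51 to -1.70). Higher peaks under it were the promoter peaks of *Cdk1*, *Kif11* and *Plk1* (0.23, 0.26 and 0.31), all 4 of *Kif2c* (0.32 to 0.47), the *Ccnb1* peak (0.44) and 1 of *Kif23* (0.35). The lower peaks were concentrated at 2 genes. All 6 peaks of *Racgap1* and all 5 peaks of *Mad2l1* were lower in UTX TCD. Of the 18 peaks of the other 12 genes 17 were higher, a split made after the data had been seen, by setting aside the genes with only lower peaks.

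The 6 *Racgap1* peaks lay within 7624 bases of the nearest annotated start (mm10), and accessibility and RNA fell together at this gene. The largest fall, from a log2 concentration of 9.72 in WT to 8.02 in UTX TCD, was in intron 1 of 17, at chr15:99649124-99649524. Upstream, the peak annotated as its promoter, at chr15:99652432-99652832 and 976 bases before the nearest start, went from 9.34 to 8.29. The intron 1 peak at chr15:99646322-99646722 went from 9.80 to 8.74, and the smallest fall of the 6, at chr15:99643832-99644232 in the same intron, was from 8.50 to 7.86. *Kif23*, the partner of *Racgap1* in centralspindlin, had a peak in its own intron 7 of 22, at chr9:61933277-61933677, that went from 7.41 to 6.46. Its other peak, 38927 bases upstream in an intron of *Paqr5*, went from 9.81 to 10.16. The 5 *Mad2l1* peaks were all intergenic, between 39993 and 122045 bases upstream, and the largest fall, at chr6:66455136-66455536, was from 6.94 to 5.31, while the RNA of *Mad2l1* did not pass the test.

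Among the genes that rose, 3 had a listed peak over the promoter, each with a slightly higher mean in UTX TCD. These were *Cdk1* (chr10:69352793-69353193, from 10.33 to 10.57), *Kif11* (chr19:37376039-37376439, from 11.35 to 11.61) and *Plk1* (chr7:122159187-122159587, from 9.60 to 9.91). Larger rises lay away from promoters, as in intron 1 of *Prc1* (chr7:80299526-80299926, from 5.23 to 6.47) and 11512 bases upstream of *Cenpe* (chr3:135200851-135201251, from 5.71 to 6.82). The largest, from 7.14 to 9.17, was a peak assigned to *Kif20a*, but it lay at the 3′ end of the neighbouring gene *Cdc23*. The rises at these 3 promoters were smaller than at any of the other 14 peaks that rose, and *Kif2c* had 4 peaks between 7421 and 30319 bases upstream, all higher.

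**Figure D3:**
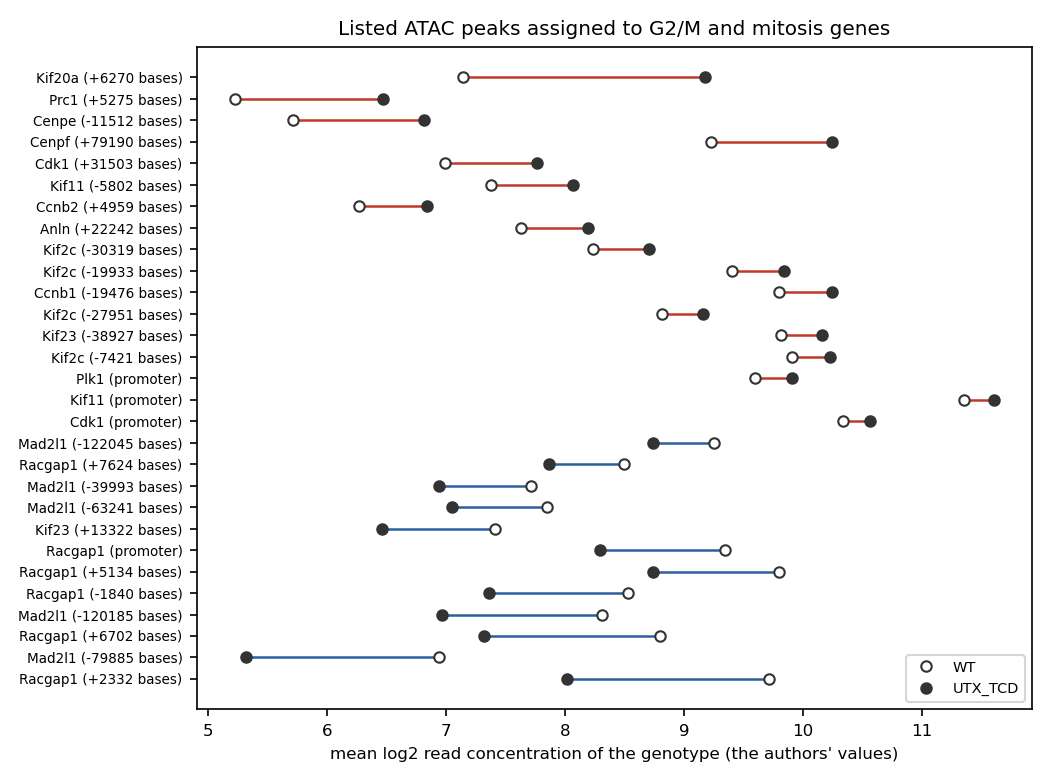
The 29 listed ATAC-seq peaks assigned to G2/M and mitosis genes (y axis, gene and distance to the nearest promoter in bases), with the authors' mean log2 read concentration in WT (open circles) and UTX TCD (filled circles) on the x axis. Red lines mark the 17 peaks that were higher in UTX TCD and blue lines the 12 that were lower, 11 of them at *Racgap1* and *Mad2l1*.

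The promoters were searched because most of these genes moved together. RefSeq windows of 300 bases (GRCm38.p6, the mm10 assembly; 250 bases before the gene start and 50 after it) were matched for 31 of the 36 genes, and *Ccna2*, *Aurkb*, *Cdc25c*, *Kif20a* and *Tpx2* had none. The CHR was searched on both strands as TTTGAA and as its variant TTCGAA, and the CCAAT box, the NF-Y element, as CCAAT. None of the motifs contains another. TTTGAA was found for 24 of the 31 genes, against 17.9% of all 32851 windows, TTCGAA for 3 genes (1.56% of all windows) and CCAAT for 24 genes (37.4%). A CHR in either form together with a CCAAT box was found for 22 genes, against 7.52% of all windows. Counting only matches within 50 bases of the gene start, a limit chosen after the data were seen, 22 of 31 genes had a CHR in either form, against 5.31% of all windows. Of the 27 constitutive mitosis genes with a window 3 had such a match near the start, and of the 52 other periodic G2/M genes 30 did. These are matches of letters, not measured binding sites, and the windows are those of the C57BL/6J reference rather than the NOD strain.

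*Racgap1*, which was called lower, and *Kif23*, which had a negative log2 fold change but was not called, held the TTTGAA element too. The 10 stretches shown were picked by hand after the data had been seen, 8 from genes that rose, so that they can be read beside those of *Racgap1* and *Kif23*, and no centromere and kinetochore gene is among them. Each is 30 bases on the strand of the gene (GRCm38.p6), 5′ to 3′, with the CHR in capitals, as TTCAAA where the match was on the opposite strand. *Cdk1* was taken from chr10:69352910-69352939 (minus strand), *Ube2c* from chr2:164769888-164769917 (plus), *Cdc20* from chr4:118437344-118437373 (minus), *Plk1* from chr7:122159453-122159482 (plus) and *Kif11* from chr19:37376351-37376380 (plus). *Top2a* was taken from chr11:99024195-99024224 (minus), *Mki67* from chr7:135716469-135716498 (minus), *Ncapg* from chr5:45669883-45669912 (plus), *Racgap1* from chr15:99651634-99651663 (minus) and *Kif23* from chr9:61946780-61946809 (minus).
Cdk1: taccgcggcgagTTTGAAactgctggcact
Ube2c: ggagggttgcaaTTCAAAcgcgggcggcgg
Cdc20: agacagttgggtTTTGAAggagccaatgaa
Plk1: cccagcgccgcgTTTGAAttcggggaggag
Kif11: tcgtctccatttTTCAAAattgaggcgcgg
Top2a: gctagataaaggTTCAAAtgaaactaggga
Mki67: gaaTTTGAAccgccgttttggTTTGAAtcg
Ncapg: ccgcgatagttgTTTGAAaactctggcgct
Racgap1: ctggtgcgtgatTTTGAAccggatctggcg
Kif23: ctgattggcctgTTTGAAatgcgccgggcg

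The first base of the match shown lay 15 bases before the start in *Cdk1*, 29 in *Ube2c*, 18 in *Cdc20*, 19 in *Kif11*, 23 in *Top2a* and 30 in *Ncapg*. *Mki67* held a pair of matches, at 116 and 98 bases before the start. Matches not shown were TTTGAA at 71 bases before the start in *Cdk1* and, in *Top2a*, TTTGAA at 179 bases and the variant at 140 and 120 bases before it, and 7 of the 31 genes had at least 2 TTTGAA matches (2.31% of all windows), a count chosen after the data had been seen. In *Plk1* the match began 30 bases after the start, in *Racgap1* 5 and in *Kif23* 2. In a check chosen after the data had been seen, the matches of *Cdk1*, *Kif11* and *Plk1* lay inside the promoter peak with the higher mean in UTX TCD, whereas the *Racgap1* match lay inside none of its 6 lower peaks. No match to any of the motifs was present in the windows of *Nuf2*, *Nusap1*, *Mad2l1* and *Birc5*, of which all but *Mad2l1* were called higher.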

How the data were processed

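RNA was measured in 3 WT and 3 UTX TCD libraries. The authors aligned reads to mm10 with HISAT2 2.2.1, counted them per gene with featureCounts and deposited a signal per gene and library, the count divided by a DESeq2 size factor. In each library 100% of values were whole multiples of 1 read (within 0.01 read), so whole reads were recovered. For ATAC-seq the deposited table gave log2 concentrations per peak and genotype, made by the authors with Bowtie2, MACS2, DiffBind and HOMER, and a read shift for the transposase was not stated. Columns with the authors' own fold changes, standard errors, p-values and adjusted p-values were not used.

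Here limma 3.58.1 (lmFit, eBayes with trend; R 4.3.3) was run on log2(normalized count + 1) for genes with a mean of at least 10, with genotype as the only term and Benjamini-Hochberg adjustment over all genes tested. Fold changes on this scale understate changes of low genes. On recovered reads edgeR 4.0.16 (quasi-likelihood) called 2541 genes and DESeq2 1.42.0 called 2422. Exon lengths came from GENCODE M21 and promoters from RefSeq. All 36 genes, and the extremes of each list, were named by rule. The genes and lists were chosen with earlier results of these data known.

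The strand setting and gene annotation were not stated. *Kif20a* shares 29.3% of its exon length with *Cdc23* on the opposite strand, *Ube2c* 22.8% with *Tnnc2*, *Ncapg* 13.4% with *Lcorl*, *Cdc25c* 12.7% with *Gm3550*, *Ccna2* 12.5% with *Exosc9* and *Prc1* 11.1% with *Rccd1*, and 3 other members under 10%, so their counts are uncertain. *Top2a* shares 1.4% with *Gm23451* on the same strand. Reads shared with near-identical copies were not examined. The single values of 1 marker gene are not reported here.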

Additional observations from a re-analysis of the deposited data

How the results depend on the processing

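The 28 genes called higher, the 1 called lower, the median log2 fold change of 0.83 and the 2538 genes called across the table were recomputed with other pseudocounts, filters, scalings, tests and depth, with a replicate block, and without each library in turn. Removing the fold limit gave 32 members called higher, 2 lower and 5887 genes in all, and a fold limit of 1 gave 7, 1 and 1253. Leaving out 1 library gave 27 to 28 members called higher, 1 lower, 2164 to 2570 genes in all and medians from 0.66 to 0.93. With the replicate block the values were 28, 1, 2474 and 0.83. The replicate numbers were not taken as pairs, since the deviations of same-numbered WT and UTX TCD libraries from their group means correlated across genes at 0.31, -0.20 and 0.09. Over all of these settings but the fold limits, 568 member results kept their label, 5 lost the call, all *Ccnb2* without 1 library, 3 gained it, and none reversed. *Lin54*, whose log2 fold change was near 0, reversed with DESeq2 (-0.00034), with reads thinned to the smallest depth (-0.0049) and without WT library 2 (-0.047), UTX TCD library 1 (-0.019) or UTX TCD library 2 (-0.024), and stood at 0.043 without UTX TCD library 3. It was not called in any setting, and the cause was not tested. UTX TCD library 1, with 61512402 reads, limits the low genes, and drawing all libraries down to it gave 2186 genes in all and left the 28 calls.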
